A study of Homo sapiens with 6 samples.

Results

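MOLM-14 and NOMO-1 are human acute myeloid leukemia cell lines that carry the MLL-AF9 fusion, in which the histone methyltransferase gene KMT2A (MLL) is joined to AF9. The RNA changes described here are those that both lines shared when NCAM1 was knocked down. They rest on 4 of the 6 libraries of the study: for each line, 1 library from cells given a scrambled control short hairpin RNA (shRNA) and 1 from cells given an shRNA against NCAM1, both transfected and sampled at 72 h. The members are the genes whose mean deposited normalized count over those 4 libraries was 10 or more, 19263 of 34114 genes, with each knockdown library set against the control library of its own line. The third line of the study, SKM-1, was left out of the shared response and is used only as a comparison.

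Every library came from an established cell line, and the labels name no other allele or agent. There was 1 library per line and condition, and nothing in the labels says that control and knockdown cells came from separate cultures, so the p-values below measure only the spread between these libraries. In bulk RNA, fewer cells of a kind and less RNA per cell cannot be told apart.

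NCAM1 (CD56) encodes a cell surface glycoprotein of the immunoglobulin superfamily that holds cells together through contacts with NCAM1 on neighbouring cells, and that can signal through the kinase FYN and through fibroblast growth factor receptors. It is best known on neurons and natural killer cells, and some acute myeloid leukemias carry it on their surface. Several of the gene programs described below answer to a single class of transcription factor. SREBP proteins, released from the membrane when sterols run low, switch on cholesterol and fatty acid genes together with the CCAAT-binding factor NF-Y. SRF acts at CArG boxes of immediate early genes, NF-kB at its own sites in inflammatory genes, and the interferon-activated STAT and IRF factors at interferon-stimulated response elements.

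Each promoter below belongs to a gene whose RNA was higher or lower in both knockdown libraries. The genes and motifs were picked by hand, and only windows that hold the motif are shown. The motifs in them are thus no finding about genes of a given direction. All are RefSeq sequences of build GRCh38.p14, written 5′ to 3′ on the strand of the gene, and they lie before its start. The authors counted reads on another build, hg19, so these coordinates do not belong to the deposited values. Capitals in the first group mark CCAAT, or ATTGG where the box lies on the other strand. In SREBF2 they mark the sterol regulatory element, searched as TCACNCCAC.

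HMGCS1 promoter window, chr5:43313488-43313607, minus strand: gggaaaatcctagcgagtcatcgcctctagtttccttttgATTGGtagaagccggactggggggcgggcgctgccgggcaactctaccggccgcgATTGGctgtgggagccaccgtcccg

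MVD promoter window, chr16:88663171-88663290, minus strand: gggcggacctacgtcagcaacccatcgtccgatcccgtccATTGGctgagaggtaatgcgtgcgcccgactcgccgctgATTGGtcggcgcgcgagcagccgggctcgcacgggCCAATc

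FDPS promoter window, chr1:155308650-155308769, plus strand: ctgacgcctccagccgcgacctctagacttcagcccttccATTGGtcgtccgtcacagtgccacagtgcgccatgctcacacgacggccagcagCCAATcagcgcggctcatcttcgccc

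SREBF2 promoter window, chr22:41832932-41833051, plus strand: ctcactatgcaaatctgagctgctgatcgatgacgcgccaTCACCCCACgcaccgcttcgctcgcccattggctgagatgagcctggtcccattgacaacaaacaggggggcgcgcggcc

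In the second group, capitals mark CArG boxes in EGR1, NF-kB sites in TNFAIP3 and interferon-stimulated response elements in IFIT3 and IFIT1. The last were searched as GAAANNGAA on both strands, so that its reverse complement is marked in IFIT3 and IFIT1.

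EGR1 promoter window, chr5:138465334-138465453, plus strand: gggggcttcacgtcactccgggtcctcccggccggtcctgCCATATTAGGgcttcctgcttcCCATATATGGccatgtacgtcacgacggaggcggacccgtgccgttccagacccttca

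TNFAIP3 promoter window, chr6:137867094-137867213, plus strand: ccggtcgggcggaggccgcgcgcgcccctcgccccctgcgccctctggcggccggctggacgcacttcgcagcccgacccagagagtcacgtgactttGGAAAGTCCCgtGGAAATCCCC

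IFIT3 promoter window, chr10:89327802-89327921, plus strand: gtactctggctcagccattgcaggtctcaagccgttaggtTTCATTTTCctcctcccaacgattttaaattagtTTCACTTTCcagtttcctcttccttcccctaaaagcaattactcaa

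IFIT1 promoter window, chr10:89392468-89392587, plus strand: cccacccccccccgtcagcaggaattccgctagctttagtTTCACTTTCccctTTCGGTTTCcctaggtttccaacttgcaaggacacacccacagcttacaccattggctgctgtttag

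Each motif was counted, on both strands, in the 300 bases from 250 before to 50 after the start of 27305 RefSeq promoters. CCAAT stood in 35.7% of them and in 12 of the 15 cholesterol synthesis promoters found in the table. The sterol regulatory element stood in 1.15% of all promoters, in 0 of those 15 and in 1 of 10 sterol uptake promoters, that of SREBF2. CArG boxes were found in 1.29% of all promoters and in 2 of 20 immediate early promoters, EGR1 and SRF. NF-kB sites were found in 5.72% of all promoters, in 7 of 21 promoters of NF-kB subunits and targets and in 6 of 9 chemokine promoters. GAAANNGAA stood in 8.29% of all promoters and in 18 of 28 promoters of interferon response genes. A match describes letters in a window and says nothing of binding. Within the windows printed above, no marked motif overlapped another of those searched.

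The 4 libraries held 41916991 to 45542099 gene-assigned reads, and 13 mitochondrially encoded protein genes took 5.40% to 7.86% of them. All 4 expressed myeloid and HOXA program genes. HOXA9 ranged from 2425 to 4449 normalized counts, MEIS1 from 1715 to 3218, CD33 from 2230 to 3837, LYZ from 3407 to 14103 and MPO from 1398 to 53986. The monocyte markers CD14, at 3.13 to 27.4, and CD68, at 3.13 to 10.4, were near 0. CD68 overlaps genes on the same and on the opposite strand, so its count is uncertain. No gene in the table identifies the fusion itself. Of the markers of other cell types, HBB was at 0 in all 4, EPCAM reached at most 1.82, and CD3E was 2.09 and 2.23 in MOLM-14 and 143 and 151 in NOMO-1. The 17 T and NK cell markers summed to 3029 in the control and 2003 in the knockdown library of MOLM-14, and to 7096 and 5338 in NOMO-1, with CD3D and NKG7 the most abundant. The other 3 marker lists summed to between 519 and 3641, the erythroid and megakaryocyte sum was lower in both knockdown libraries, and the epithelial and stromal sum, mostly KRT8 and KRT18, was higher in both. The mitochondrial share was higher in the knockdown library of each line, at 6.16% against 5.40% and 7.86% against 7.49%. The part of these differences in the results was not tested.

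The target of the hairpin was lower in both lines. NCAM1 (ENSG00000149294) went from 6004 to 1896 normalized counts in MOLM-14 and from 1163 to 312 in NOMO-1. Each knockdown library lay below its own control, but the MOLM-14 knockdown library still held more NCAM1 than the NOMO-1 control. It was 3.17-fold lower in MOLM-14 (exact 95% counting interval 3.002 to 3.34, which covers counting error only) and 3.73-fold lower in NOMO-1 (3.30 to 4.21). The mean log2 ratio was -1.78 ± 0.16 (SD, n = 2 lines), with a limma adjusted p of 0.139. In SKM-1 the same gene went from 12537 to 101, and the difference of that log2 ratio from the mean of the MLL-AF9 lines, -5.16, had a limma adjusted p of 0.00196.

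Of the genes tested, 58.8% had the same direction in both lines. limma, fitted on log2(normalized count + 1) and blocked by cell line, called 0 of 19263 genes at an adjusted p under 0.05 (0%), and the smallest adjusted p was 0.0804. At an unadjusted p under 0.05 it counted 1728 genes, 565 higher (2.93% of those tested) and 1163 lower (6.04%), so that 32.7% of them were higher. With scaling to the total count instead of the authors' size factors, 761 were higher and 983 lower, 43.6% higher. On recovered whole reads, edgeR called FLT1 and CR1, and DESeq2 called 200 of the 12167 genes for which it gave an adjusted p (1.64%), 22 higher and 178 lower. All 200 had the same direction in both lines, as did all 1728 of limma. Each fit tests a single change common to both lines, which favours genes of the same direction.

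By direction alone, 5556 of the tested genes (28.8%) were higher in both lines and 5774 (30%) were lower in both. The log2 ratios of MOLM-14 and NOMO-1, which share no library, had a Pearson correlation of 0.158 across the 19263 genes and 0.306 across the 11823 genes with 100 or more normalized counts in 1 library of each line. Genes within a library are not independent replicates, so no p is given. Among those 11823 genes, 7 were at least 2-fold higher in both lines (0.0592%) and 50 were at least 2-fold lower in both (0.423%), while 15 were at least 2-fold different in opposite directions.

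The response of MOLM-14 was the smaller. Among the 11823 genes, 63 were at least 2-fold higher and 128 at least 2-fold lower in MOLM-14, against 148 and 501 in NOMO-1. The 50 shared lower genes are 39.1% of the MOLM-14 set and 9.98% of the NOMO-1 set, and the 7 shared higher genes are 11.1% and 4.73%. These genes were picked by the ratios that the tests also use, so no count of tests passed is given for them. Of the 50 lower genes, 44 are protein coding. Just inside the 2-fold limit were EPAS1, whose smaller log2 ratio of the 2 lines was 1.05, and KREMEN1 at -1.004. Just outside it were DYNLT3 at 0.99 and ARAP2 at -0.98, with XYLT1 short of the limit only before rounding.

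**Figure D1:**
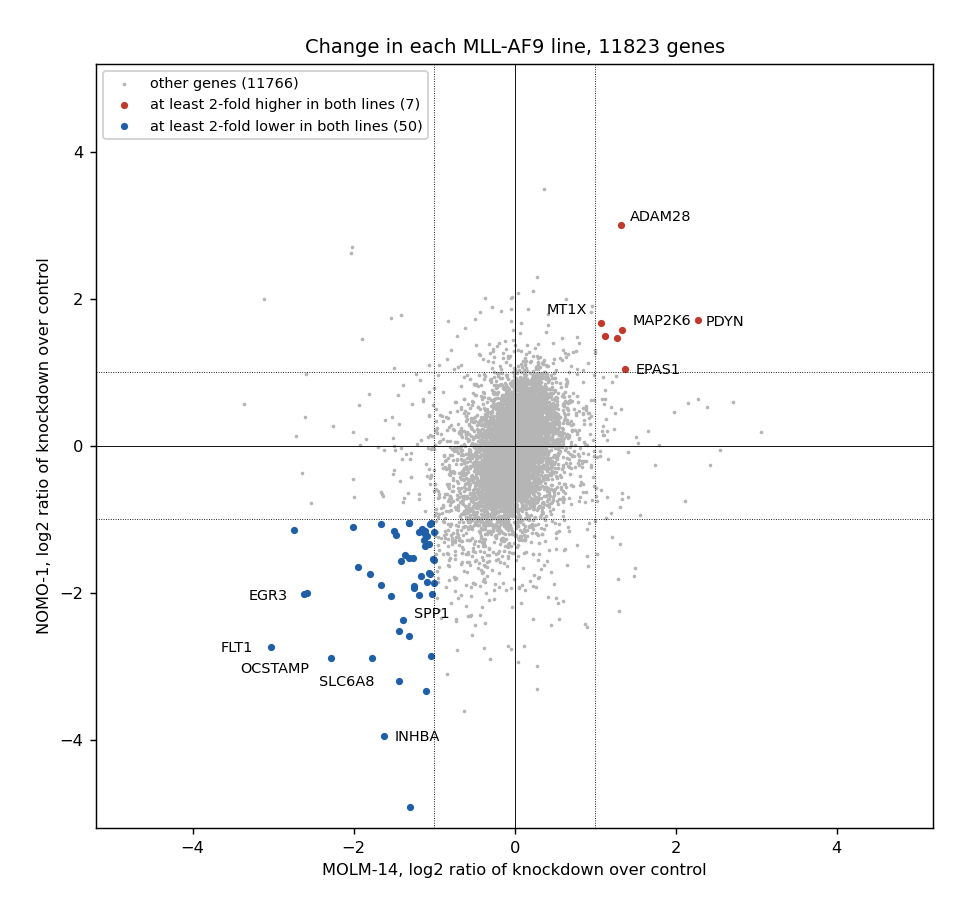
Log2 ratio of knockdown over control in MOLM-14 (horizontal axis) against NOMO-1 (vertical axis) for 11823 genes, each point 1 gene; dotted lines mark 2-fold. The 50 genes lower in both lines (blue) outnumber the 7 higher in both (red), and FLT1 is the most strongly lower by the smaller of its 2 ratios.

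FLT1, the vascular endothelial growth factor receptor VEGFR1, was the most strongly lower gene by the smaller of its 2 ratios. It went from 2259 to 277 normalized counts in MOLM-14 and from 2229 to 335 in NOMO-1. Both controls lay close together and both knockdown libraries lay far below them, so the groups did not overlap. It was 8.17-fold lower in MOLM-14 (counting interval 7.18 to 9.32) and 6.66-fold lower in NOMO-1 (5.96 to 7.45). The mean log2 ratio of -2.88 ± 0.21 (SD, n = 2 lines) had a limma adjusted p of 0.0804, an edgeR adjusted p of 0.0290 and a DESeq2 adjusted p of 3.64e-26. In SKM-1 it went the other way, from 895 to 2467. VEGFA, a ligand of this receptor, went from 19229 to 10202 in MOLM-14 and from 5324 to 2962 in NOMO-1.

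INHBA, ACVR1C, SPP1 and RGS1 were among the 14 lowest genes by the same ranking. INHBA, which encodes the subunit of activin A, went from 2208 to 716 in MOLM-14 and from 899 to 57.5 in NOMO-1. The NOMO-1 difference of 15.7-fold was larger than the MOLM-14 difference of 3.08-fold, with counting intervals that do not meet (12.1 to 20.5 and 2.83 to 3.37). ACVR1C, a receptor of the TGF-beta superfamily, went from 113 to 44.9 and from 549 to 90.3. SPP1, the secreted matrix protein osteopontin, went from 1369 to 524 in MOLM-14 and from 9870 to 1905 in NOMO-1. For each of these 3 genes the ratio was larger in NOMO-1. RGS1, which shortens G protein signaling, went from 6128 to 2255 and from 1951 to 339, with DESeq2 adjusted p 5.23e-07.

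OCSTAMP, a membrane protein needed for osteoclast fusion, went from 1756 to 360 in MOLM-14 and from 351 to 46.5 in NOMO-1. Its mean log2 ratio was -2.59 ± 0.43 (SD, n = 2 lines). TPSB2, a mast cell tryptase, went from 102 to 15.7 and from 265 to 64.8; it has near-identical copies, so its count is uncertain. DUSP8, a phosphatase that acts on MAP kinases, went from 189 to 54.3 and from 229 to 30.1. SLC6A8, the creatine transporter, went from 1824 to 670 and from 2907 to 316. EHD2, which acts at caveolae, went from 160 to 59.5 and from 2565 to 862. All 5 were ranked among genes of the same direction in both lines, so their shared direction is no further result. SLC6A8 and PNCK overlap on opposite strands, both were among the 50 lower genes, and the kit does not mark strand, so their reads cannot be told apart.

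Further genes among the 50, picked after their values were seen, encode growth factors and surface receptors. PDGFA, a platelet-derived growth factor chain, went from 3143 to 469 in MOLM-14 and from 659 to 298 in NOMO-1. S1PR3, a sphingosine 1-phosphate receptor, went from 1349 to 621 and from 2151 to 837. LRP1, an endocytic receptor, went from 407 to 181 and from 818 to 240. IL21R, the interleukin 21 receptor, went from 309 to 147 and from 149 to 58.4. The ratio of PDGFA was larger in MOLM-14 and that of the other 3 larger in NOMO-1. Of the 50 lower genes, 13 belong to one of the gene lists below and 37 to none.

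The higher genes were fewer. ADAM28, a membrane-bound metalloprotease of lymphocytes, went from 142 to 355 normalized counts in MOLM-14 and from 296 to 2388 in NOMO-1, which is 2.51-fold (counting interval 2.04 to 3.10) and 8.08-fold (7.18 to 9.11). Its mean log2 ratio was 2.16 ± 1.195 (SD, n = 2 lines) and the lines differed in the size of the ratio, not in its direction. PDYN, the precursor of the dynorphin peptides, went from 24.5 to 123 and from 85.0 to 280. MAP2K6, a kinase that activates p38, went from 91.4 to 232 and from 288 to 861, with a limma adjusted p of 0.278 and a DESeq2 adjusted p of 0.0102. The ranking took only genes of the same direction in both lines, so the shared direction of these 3 is no further result.

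SHISA2, an endoplasmic reticulum protein that holds back Wnt and FGF receptors, went from 431 to 1042 in MOLM-14 and from 153 to 426 in NOMO-1. EPAS1, the oxygen-regulated factor HIF-2 alpha, went from 633 to 1634 and from 92.6 to 193. RASGRP3, an activator of RAS proteins, went from 70.3 to 155 and from 70.8 to 201. In RASGRP3 the 2 controls were nearly equal and both knockdown libraries were more than 2-fold above them. Its exons overlap a gene on the opposite strand. DYNLT3, a light chain of the dynein motor, went from 148 to 297 and from 726 to 1790, and LANCL3 went from 53.5 to 108 and from 108 to 261. SYNJ2BP, a mitochondrial outer membrane protein, had ratios of 0.99 and 0.96 on the log2 scale, an SD of 0.02, at 77.5 to 163 normalized counts.

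**Figure D2:**
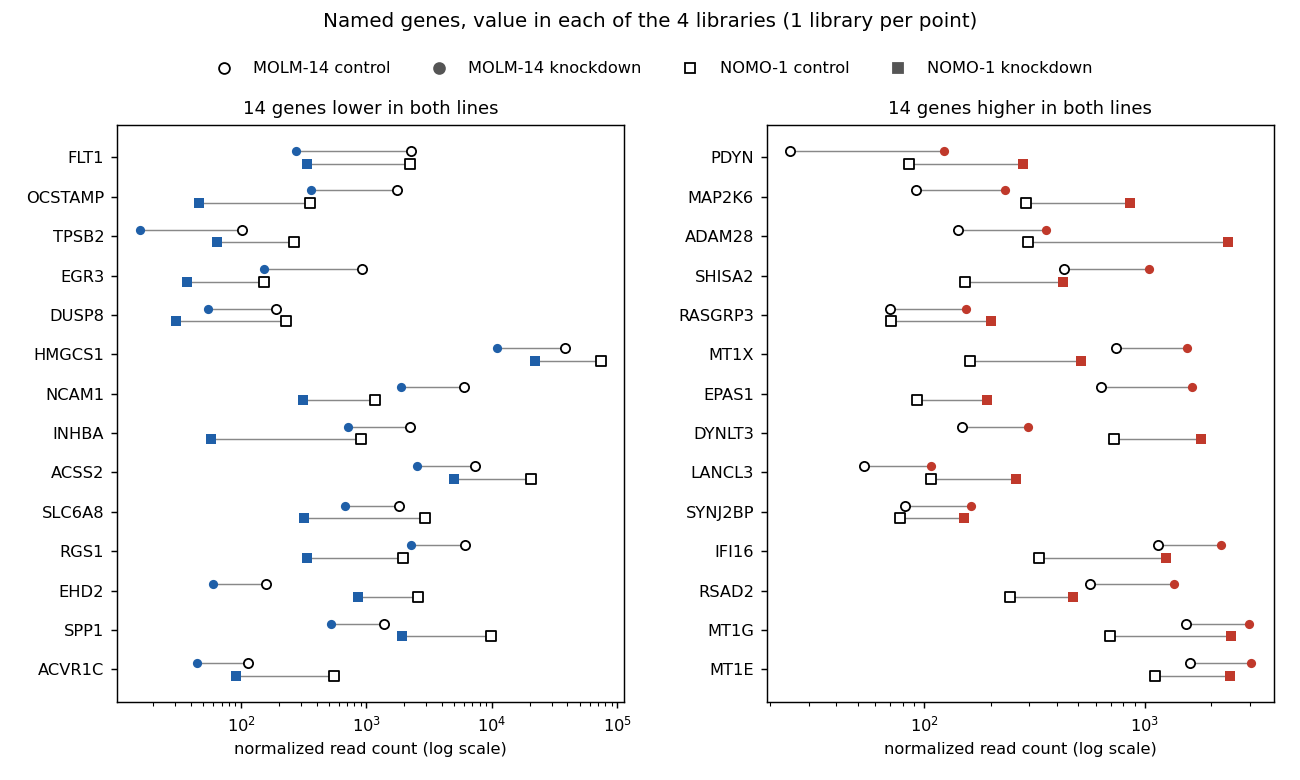
Normalized read count (log scale) of the 14 genes lowest (left) and the 14 highest (right) in both lines, with 1 point for each of the 4 libraries. Circles are MOLM-14 and squares NOMO-1, open for control and filled for knockdown. The shared direction of each gene was a condition of the ranking. Log2 ratios of the higher genes ran from 0.91 (MT1E in MOLM-14) to 3.01 (ADAM28 in NOMO-1).

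Metallothioneins, small cysteine-rich proteins that bind zinc and copper, were among the higher genes; this group was formed after its values were seen. MT1X went from 737 to 1548 normalized counts in MOLM-14 and from 162 to 515 in NOMO-1. MT1G went from 1535 to 2956 and from 696 to 2466. MT1E went from 1611 to 3031 and from 1109 to 2425. MT2A and MT1F were also higher in both, MT2A from 4456 to 7775 and from 1724 to 4556. Of 6 tested, 5 were higher in both lines, against 28.8% of all genes, which is a description and no test, since those values formed the group. MT1H was at 0 in both MOLM-14 libraries and went from 100.1 to 1091 in NOMO-1. These genes resemble each other closely, so reads may be split or dropped between them. The median mean log2 ratio of the 6 was 1.23, and their median in SKM-1 was -1.32.

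Gene lists are described by how many members went the same way in both lines and by the median of their mean log2 ratio. Over all 19263 genes that median was -0.00, with 28.8% higher and 30% lower in both lines. At an unadjusted limma p under 0.05, 2.93% of all genes were higher and 6.04% lower. These shares are the background for the counts of every list below. Members named by their limma p are favoured to share direction, because the fit tests a change common to both lines. For some genes both controls are said to lie above both knockdown libraries. The share of all genes in that order was not counted, so such statements only describe the genes named.

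Cholesterol synthesis was the most uniform list. Of 20 genes tested, 19 were lower in both lines, all 19 with an unadjusted limma p under 0.05, 15 were called by DESeq2 and none by limma, whose smallest adjusted p was 0.0990. The background for lower genes at that unadjusted level is the 6.04% given above. The median log2 ratio was -0.79 in MOLM-14 and -1.02 in NOMO-1. HMGCS1, which makes the HMG-CoA from which the pathway starts, went from 37988 to 10881 in MOLM-14 and from 74621 to 22251 in NOMO-1. Its ratios were alike, 3.49-fold lower (counting interval 3.42 to 3.57) and 3.35-fold lower (3.31 to 3.40), and its limma adjusted p was 0.0990. An antisense gene overlaps HMGCS1 and was also among the 50 lower genes.

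Other enzymes of the pathway were lower in both lines too. The ratios were alike for ACAT2 and SQLE, and larger in NOMO-1 for MVD, FDPS, LSS and DHCR7. For MVD the counting intervals of the fold, 1.84 to 2.04 in MOLM-14 and 2.44 to 2.66 in NOMO-1, do not meet. ACAT2, which joins acetyl-CoA units ahead of HMGCS1, went from 8461 to 4121 and from 8868 to 4295. MVD, which forms isopentenyl diphosphate, went from 4795 to 2474 in MOLM-14 and from 6637 to 2603 in NOMO-1. FDPS, which forms farnesyl diphosphate, went from 11036 to 5747 and from 8999 to 3356. The promoters of MVD and FDPS printed above hold 3 and 2 CCAAT boxes in the windows shown. SQLE, which epoxidizes squalene, went from 11731 to 6256 and from 19214 to 10248, a log2 ratio of -0.91 in each line. LSS, which closes the sterol ring, went from 9516 to 4893 and from 10170 to 4509. For every one of these enzymes, which were named by their limma p, both controls lay above both knockdown libraries. MSMO1 and DHCR7, late sterol enzymes, had mean log2 ratios of -0.99 and -1.02. FDPS and LSS each overlap another lower gene, RUSC1-AS1 and AP001468.1. The exception was PMVK, the phosphomevalonate kinase, which went from 1337 to 1554 and from 817 to 875.

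Sterol uptake and sensing genes were lower too, at 9 of 11 in both lines, 6 of them with an unadjusted limma p under 0.05. INSIG1, which holds SREBP in the membrane, went from 26493 to 14410 in MOLM-14 and from 9022 to 3880 in NOMO-1. SREBF2, the gene of the SREBP that acts on cholesterol genes and whose promoter window is printed above, went from 24632 to 17532 and from 22230 to 12742. Both genes had each knockdown library below its own control, with the larger ratio in NOMO-1. STARD4, NPC1 and INSIG2 also passed, with mean log2 ratios of -1.08, -0.71 and -0.65. SREBF1 had ratios of -0.09 and -0.38. NPC1L1 was higher in both lines at 5.67 to 16.7 normalized counts.

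Of 13 fatty acid synthesis genes, 11 were lower in both lines, and 8 of these had an unadjusted limma p under 0.05. ACSS2, which makes acetyl-CoA from acetate, went from 7372 to 2544 in MOLM-14 and from 20348 to 4950 in NOMO-1. FADS2, a desaturase, went from 23909 to 10465 and from 21461 to 9568. SCD, which makes monounsaturated fatty acids, went from 72571 to 45564 and from 40199 to 16365. Both controls lay above both knockdown libraries for ACSS2 and FADS2, while for SCD the MOLM-14 knockdown library lay above the NOMO-1 control. FASN and ACLY, the fatty acid synthase and the enzyme that supplies it, had mean log2 ratios of -0.74 and -0.75. ME1, a malic enzyme that yields NADPH, went the other way, from 59.1 to 236 and from 1388 to 1906, and ELOVL1 had ratios of 0.24 and 0.04. In the cholesterol efflux list, 3 of 7 genes were lower in both lines and none had an unadjusted limma p under 0.05. SOAT1, which esterifies cholesterol, had ratios of 0.31 and 0.13. ABCA1, an exporter of cholesterol, went from 495 to 753 in MOLM-14 and from 1344 to 311 in NOMO-1.

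Glycolysis genes were lower in both lines for 20 of 22, of which 15 had an unadjusted limma p under 0.05 and 4 were called by DESeq2. The median log2 ratio was -0.43 in MOLM-14 and -0.69 in NOMO-1. HK2, which traps glucose in the cell, went from 10674 to 6852 and from 11574 to 6118. PGK1, which makes ATP from a glycolytic intermediate, went from 47219 to 32061 in MOLM-14 and from 65855 to 33981 in NOMO-1. For both enzymes the knockdown libraries of both lines lay below both controls. ENO2, an enolase, went from 2915 to 1412 in MOLM-14 and from 3138 to 433 in NOMO-1, and ALDOC, an aldolase, from 6157 to 3428 and from 13644 to 1592. These 2 genes had the larger ratio in NOMO-1, as did PFKFB4, with log2 ratios of -0.72 and -2.78. PDK1, SLC16A3 and the glucose carrier SLC2A1 had mean log2 ratios of -0.66, -0.64 and -0.69. PFKFB3 was the only gene higher in both, at 0.46 and 0.11.

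Hypoxia response genes were less even. Of 19 tested, 11 were lower in both lines, 7 of them with an unadjusted limma p under 0.05, and none was higher in both. The median log2 ratio was -0.27 in MOLM-14 and -0.88 in NOMO-1. CA9, a carbonic anhydrase, went from 423 to 135 in MOLM-14 and from 76.5 to 0.912 in NOMO-1. P4HA1, a collagen prolyl hydroxylase, went from 9053 to 6222 and from 10918 to 2879. NDRG1, a stress protein, went from 27644 to 22285 in MOLM-14 and from 40431 to 5437 in NOMO-1. The gap between the lines was widest for NDRG1 and CA9 among these genes. BNIP3L, MXI1 and ERO1L were lower in both with mean log2 ratios of -0.71, -1.30 and -0.71.

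**Figure D3:**
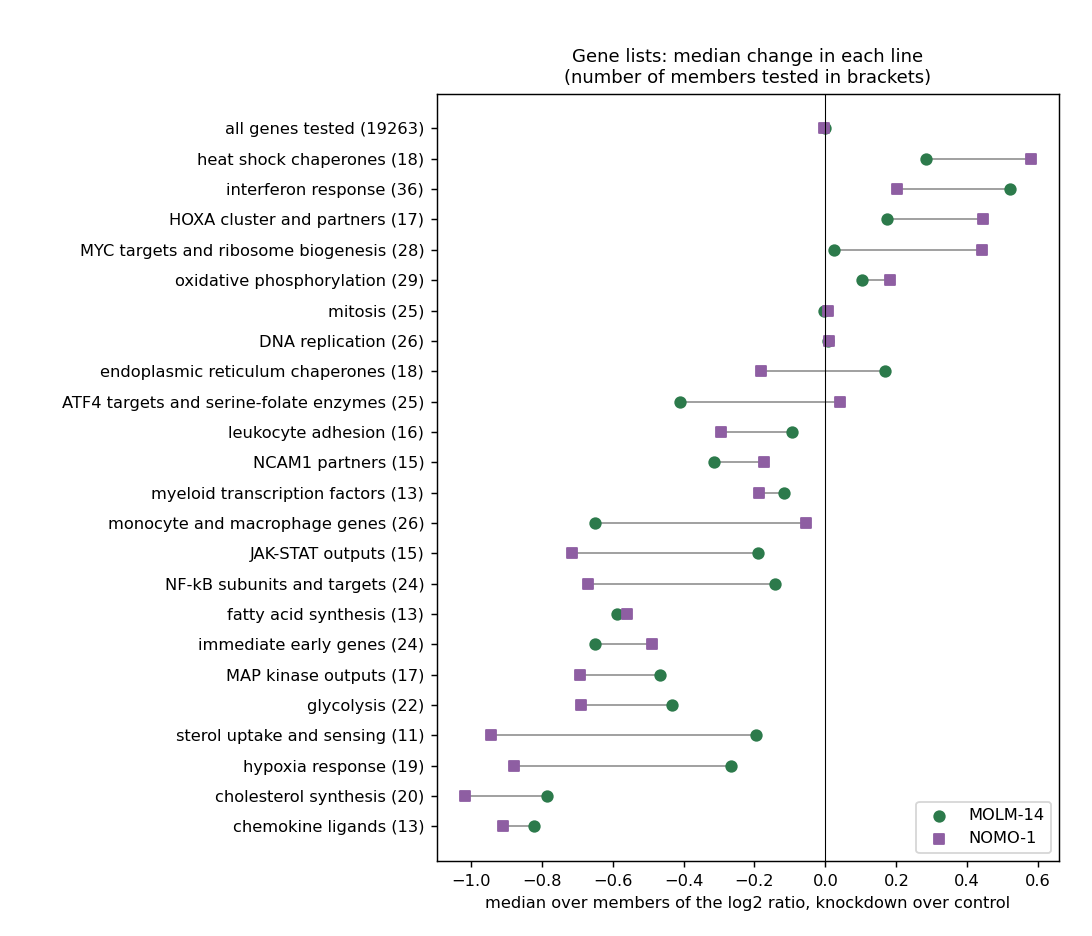
Median log2 ratio of knockdown over control of each gene list in MOLM-14 and NOMO-1, with the number of genes tested. Cholesterol synthesis (-0.79 and -1.02) and chemokine ligands (-0.82 and -0.91) lie far to the left in both lines, and interferon response (0.52 and 0.20) and heat shock chaperones (0.28 and 0.58) to the right.

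Outputs of the MAP kinase cascade, many of which are brakes on that cascade, were lower in both lines for 15 of 17 genes, and 13 of these had an unadjusted limma p under 0.05. PHLDA1 went from 1509 to 544 in MOLM-14 and from 844 to 363 in NOMO-1. DUSP6, a phosphatase that turns off ERK, went from 4250 to 2904 and from 4966 to 3588. ETV5, a transcription factor of the PEA3 group, went from 3032 to 1884 and from 5450 to 3370, with log2 ratios of -0.69 and -0.69. MAFF, CCND1, IL1RAP, SPRY1 and SPRY2 were also lower, at mean log2 ratios of -1.32 to -0.52. The knockdown libraries of both lines lay below both controls for DUSP6 and PHLDA1. ETV1 had ratios of 0.05 and 0.38.

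Immediate early genes, the transcription factors that cells induce within minutes of a signal, were lower in both lines for 21 of 24, and none was higher in both. Of these, 11 had an unadjusted limma p under 0.05 and 3 were called by DESeq2. EGR1 went from 2892 to 1264 normalized counts in MOLM-14 and from 644 to 158 in NOMO-1. EGR2 went from 230 to 32.4 and from 53.8 to 16.4. EGR3 went from 926 to 154 and from 152 to 37.4, 6.03-fold lower (counting interval 5.06 to 7.24) and 4.07-fold lower (2.87 to 5.88). All 3 were low in NOMO-1 from the start, whose controls lay below the MOLM-14 controls. The EGR1 promoter window printed above holds 2 CArG boxes. JUN, a subunit of AP-1, went from 516 to 279 in MOLM-14 and from 1566 to 767 in NOMO-1. IER3 and the nuclear receptor NR4A1 had mean log2 ratios of -1.44 and -1.06, and IER2 and FOSL2 -0.72 and -0.56. EGR3 overlaps a gene on the opposite strand.

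Subunits and targets of NF-kB were lower in both lines for 14 of 24 genes and higher in 3, and 9 of the lower ones had an unadjusted limma p under 0.05. TRAF1, an adaptor of tumor necrosis factor receptors, went from 1222 to 513 in MOLM-14 and from 1357 to 360 in NOMO-1. TNFAIP3 (A20), which restrains the pathway and whose promoter window above holds 2 NF-kB sites, went from 7173 to 4393 and from 2834 to 1330. TNF itself went from 3963 to 1250 and from 1479 to 955. PLAUR, the urokinase receptor, and ICAM1, an adhesion molecule, had mean log2 ratios of -1.03 and -0.94. All 5 had each knockdown library below its own control. NFKB2, a subunit, had log2 ratios of -0.40 and -1.30. SOD2, NFKBIE and BIRC3 were higher in both lines, at mean log2 ratios of 0.19, 0.10 and 0.16.

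Chemokine ligands were lower in both lines for 11 of 13, 6 of them with an unadjusted limma p under 0.05, with medians of -0.82 in MOLM-14 and -0.91 in NOMO-1. IL8 (CXCL8), which attracts neutrophils, went from 323 to 134 in MOLM-14 and from 8995 to 3115 in NOMO-1. CCL5 went from 7367 to 4181 and from 9473 to 3063. CCL3 was at low counts, from 65.8 to 9.40 and from 56.7 to 7.30. CCL3 had the largest ratio of the list, CCL5 had both controls above both knockdown libraries, and IL8 differed more between the lines than between conditions. CXCL16, CCL20 and CCL4 had mean log2 ratios of -0.97, -1.54 and -1.77. CCL2 went from 4.46 to 5.22 and from 130 to 294.

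Interferon response genes were higher in both lines for 23 of 36, of which 12 had an unadjusted limma p under 0.05, against 2.93% of all genes, and DESeq2 called 1. The median log2 ratio was 0.52 in MOLM-14 and 0.20 in NOMO-1. RSAD2 (viperin), an antiviral enzyme, went from 567 to 1357 in MOLM-14 and from 245 to 474 in NOMO-1. PARP9 went from 423 to 840 and from 787 to 1217. OAS3, a sensor of double-stranded RNA, went from 183 to 821 and from 1015 to 1525. All 3 were higher in both lines, RSAD2 by 2.40-fold (counting interval 2.16 to 2.66) and 1.94-fold (1.66 to 2.26). IFI44, HERC5, IFIT5 and OAS1 had mean log2 ratios of 1.23, 1.51, 0.88 and 1.01. IFIT3 and IFIT1, whose promoter windows are printed above, were not in the first 8 by p but are named because those windows are shown. IFIT3 went from 978 to 1505 and from 60.5 to 89.4, and IFIT1 from 664 to 918 and from 8.501 to 20.1. IRF7, a factor of the same program, was lower, from 1045 to 764 and from 604 to 307, and so was IFI27 at low counts. IFI16, a DNA sensor outside this list, went from 1144 to 2219 and from 331 to 1244. RSAD2 and CMPK2 overlap.

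Heat shock chaperones, which help proteins fold, were higher in both lines for 15 of 18, and none was lower in both. Of the 15, 8 had an unadjusted limma p under 0.05. The median log2 ratio was 0.28 in MOLM-14 and 0.58 in NOMO-1. HSPH1 went from 9132 to 12112 in MOLM-14 and from 12187 to 25937 in NOMO-1. HSP90AA1 went from 47913 to 61896 and from 58654 to 117220. HSPA8 went from 71263 to 88045 and from 44042 to 87201. The ratio was larger in NOMO-1 for each of the 3. HSPE1, DNAJA1, CHORDC1, AHSA1 and HSPA4 were the other 5, with mean log2 ratios of 0.36 to 0.83. Chaperones of the endoplasmic reticulum did not show the same direction: 4 of 18 were higher in both lines, 3 lower in both, and none had an unadjusted limma p under 0.05.

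**Figure D4:**
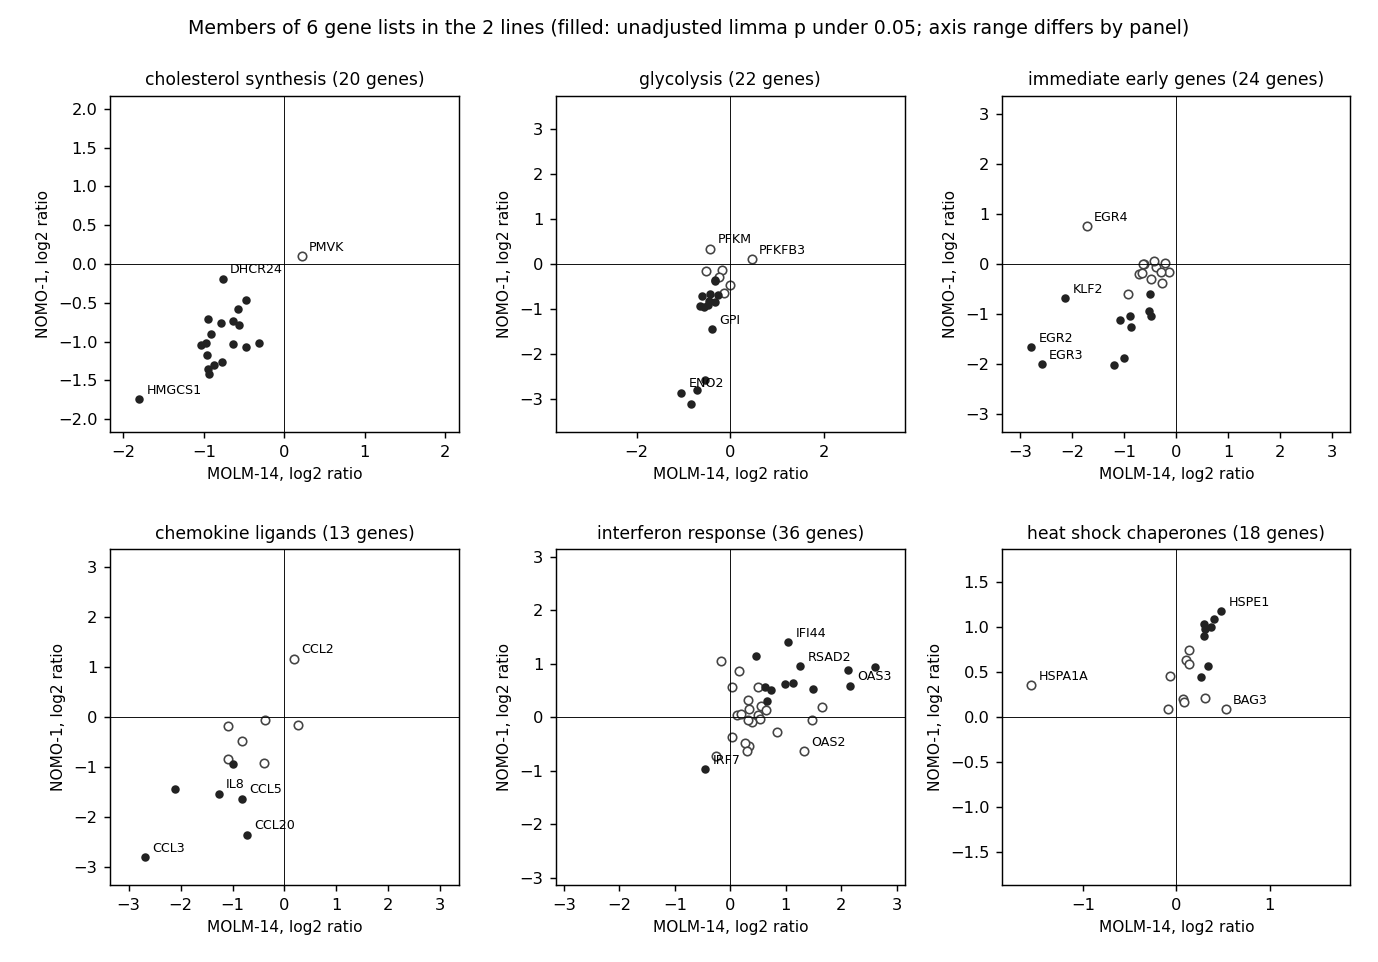
Log2 ratio in MOLM-14 (horizontal) against NOMO-1 (vertical) for the members of 6 lists, each point 1 gene, filled where the unadjusted limma p was under 0.05; axis ranges differ by panel. The cholesterol panel has 19 of 20 genes in the lower left, the interferon panel 23 of 36 in the upper right.

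In the list of NCAM1 and its partners in adhesion and signaling, 10 of 15 genes were lower in both lines, against 30% of all genes. Of these, 6 had an unadjusted limma p under 0.05, against 6.04% of all genes. NCAM1, the target of the hairpin, is counted among the 10 and among the 6. SPTBN1, a spectrin that binds NCAM1 from inside the cell, went from 7777 to 4927 in MOLM-14 and from 16854 to 6130 in NOMO-1. SPTAN1, its alpha partner, had log2 ratios of -0.31 and -0.82. FYN, the SRC-family kinase, went from 1928 to 1062 and from 2027 to 1757. ST8SIA4, which adds polysialic acid to NCAM1, had log2 ratios of -0.17 and -0.85, and L1CAM, a related adhesion protein, -0.44 and -1.91. The direction was shared in these 5, though the ratio was larger in NOMO-1 for all but FYN. NCAM2, the paralog of NCAM1, was higher, from 1145 to 2115 in MOLM-14 and from 1.89 to 14.6 in NOMO-1, where it was near 0. Its unadjusted limma p was 0.00726. FGFR1 had ratios of 0.08 and 0.40.

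Leukemia identity genes of the MLL class were mostly higher. In the list of the HOXA cluster and its partners, 13 of 17 genes were higher in both lines, with medians of 0.17 in MOLM-14 and 0.44 in NOMO-1, but of these only CDK6 and HOXA5 had an unadjusted limma p under 0.05. CDK6, a cell cycle kinase, went from 23385 to 31502 in MOLM-14 and from 19908 to 30084 in NOMO-1. HOXA5 went from 744 to 995 and from 410 to 752. HOXA9 went from 4193 to 4449 and from 2425 to 3712. The NOMO-1 ratio was the larger in each. FLT3, the receptor kinase, was lower, from 39095 to 28123 and from 2787 to 1348, and it is the only member lower in both. Antisense genes overlap CDK6 and several HOXA genes, so their counts may include other transcripts.

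Differentiation genes were mixed. Of 26 monocyte and macrophage genes, 11 were lower in both lines and 3 higher, and the median was -0.65 in MOLM-14 and -0.05 in NOMO-1. NCF1, a subunit of the phagocyte oxidase, went from 3350 to 2007 in MOLM-14 and from 6599 to 2262 in NOMO-1. ITGAX (CD11c) went from 4935 to 3262 and from 11454 to 3839. TLR2, VCAN, CSF1R and FCGR1A were the other 4 with an unadjusted limma p under 0.05, all lower, and MSR1, TLR4 and CTSS were the 3 higher in both. Myeloid transcription factors were lower in both for 8 of 13, and 5 of them passed that level: RUNX3, CEBPD, GFI1B, SPI1 and IRF8. SPI1 (PU.1) went from 6109 to 4791 and from 7523 to 5122. ID1 and CEBPA were higher in both lines, at mean log2 ratios of 0.60 and 0.43. Of 12 granulocyte genes, 1 was higher and 1 lower in both lines.

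JAK-STAT output genes, which cytokine receptors induce, were lower in both lines for 9 of 15, and 5 passed an unadjusted limma p of 0.05. CISH, a STAT5 target that dampens cytokine signaling, went from 3292 to 2166 in MOLM-14 and from 749 to 456 in NOMO-1. SOCS3 went from 390 to 257 and from 119 to 60.2. OSM, CSF2RB and PIM2 had mean log2 ratios of -0.84, -0.57 and -0.61. SOCS2 stood against them at 0.22 and 0.49. Among leukocyte adhesion genes, 10 of 16 were lower in both lines and 4 of these passed, ITGB3, CD44, ITGB2 and CXCR4, while ICAM3 passed as higher and ITGB1 was higher in both without passing. CD44, which binds hyaluronan, went from 12394 to 9031 and from 13466 to 7801.

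Proliferation and biosynthesis genes had small ratios. Of 26 DNA replication genes, 9 were higher and 9 lower in both lines, near the shares of all genes (28.8% and 30%), with RRM2 the 1 gene at an unadjusted limma p under 0.05, at -0.57 and -0.30. Of 25 mitosis genes, 8 were higher and 7 lower, also near those shares, and none passed. MYC targets and ribosome biogenesis genes were higher in both for 16 of 28, with ODC1 and NHP2 passing, while MYC itself went from 30769 to 25149 in MOLM-14 and from 12127 to 9599 in NOMO-1, and RRP12 was lower in both as well. Nuclear oxidative phosphorylation genes were higher in both for 18 of 29, against 28.8% of all genes, with a median of 0.14. That count was 22 with total-count scaling and with quantile normalization, where 6590 and 6210 of all genes were higher in both. UQCRQ, ATP5G1 and NDUFS3 passed, and ATP5B, UQCRC1 and CYC1 were lower in both. In the list of ATF4 targets and serine and folate enzymes, 11 of 25 were lower in both and none higher. TRIB3 went from 4957 to 2695 and from 7511 to 3676, and MTHFD2 from 14126 to 7199 and from 9774 to 6539.

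SKM-1 was set beside the MLL-AF9 lines for comparison only. It is 1 line, and its NCAM1 was 124-fold lower, so the line, the fusion, the hairpin and the depth of the knockdown cannot be told apart. Its libraries stood apart: 27.7% of its genes with 100 or more normalized counts differed at least 2-fold between its libraries, against 2.16% in MOLM-14 and 7.71% in NOMO-1. The name of the hairpin in its deposited column differs by 1 letter from that of the other lines, and whether the sequence is the same was not settled. A limma fit on all 6 libraries compared the SKM-1 log2 ratio with the mean of MOLM-14 and NOMO-1, and it called 2301 of 19263 genes (11.9%). That fit has 1 residual degree of freedom, which comes from the difference between the MLL-AF9 lines, and SKM-1 has 1 library per condition.

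Of the 50 genes lower in both MLL-AF9 lines, 28 were also lower in SKM-1 and 22 were higher, with a median SKM-1 log2 ratio of -0.12. Over all 19263 genes tested, 9734 were lower and 9173 higher in SKM-1, with a median of -0.01. The split of the 50 lies near that background and is not read as a result about them. The 50 were chosen as low in the lines that SKM-1 is compared with, which favours SKM-1 lying above them, so no count of called differences is read for them. SPP1 went from 519 to 65468 in SKM-1, a log2 difference of 8.85. IL8 went from 528 to 28301, and FLT1 was 4.34 above on the log2 scale. ENO2 and SLC6A8 went the same way in SKM-1 as in the other lines, from 1319 to 149 and from 4962 to 1027. In 16 of the 50, both SKM-1 libraries were under 100 normalized counts. Of the 7 higher genes, 4 were at least 2-fold higher in SKM-1 too: RASGRP3, which was further above there, ADAM28, SHISA2 and PDYN. ADAM28 went from 280 to 2599, while SHISA2 had at most 33.1 normalized counts in SKM-1 and PDYN at most 2.75. MAP2K6, MT1X and EPAS1 went the opposite way in SKM-1.

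**Figure D5:**
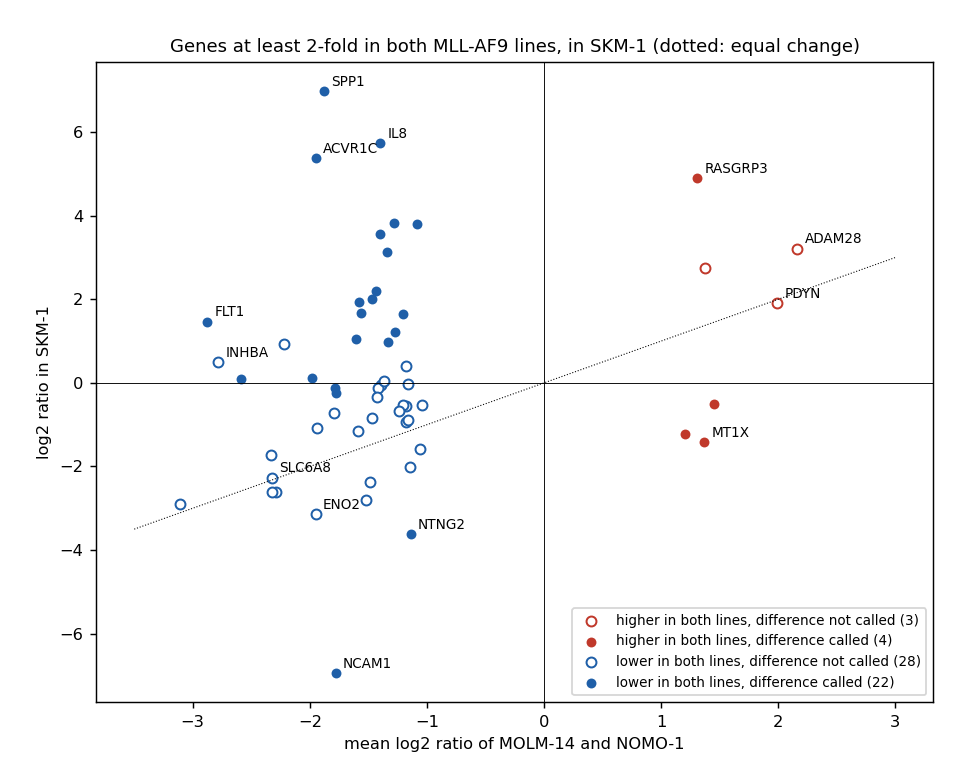
Mean log2 ratio of MOLM-14 and NOMO-1 (horizontal) against the log2 ratio of SKM-1 (vertical) for the 57 genes at least 2-fold higher or lower in both MLL-AF9 lines; filled points mark a called difference and the dotted line equal change. SPP1, IL8 and ACVR1C lie far above the line and NCAM1 far below it.

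By list, the called differences from SKM-1 are given by direction. Of all 19263 genes, SKM-1 was called above the MLL-AF9 lines for 1228 and below for 1073. SKM-1 lay above the MLL-AF9 lines for 8 of 13 chemokine ligands, 14 of 24 NF-kB genes, 9 of 24 immediate early genes, 6 of 17 MAP kinase outputs and 13 of 26 monocyte genes, and below for 0 in each. Their SKM-1 medians were 2.63, 1.498, 0.54, 0.55 and 3.39 on the log2 scale. Fatty acid synthesis had an SKM-1 median of 0.15, against -0.59 in MOLM-14 and -0.56 in NOMO-1. Of its 13 genes, 7 were higher and 6 lower in SKM-1. For cholesterol synthesis the SKM-1 median was -0.52, for glycolysis -0.55 and for hypoxia response -0.99, the same sign as in the MLL-AF9 lines. The difference was called above for 2 of 20, 2 of 22 and 0 of 19 genes of these lists, HMGCS1 among the first, and called below for 0, 1 and 2. Interferon response genes had an SKM-1 median of -0.08, with 8 of 36 called below and 1 above.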

How the data were processed

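RNA of 3 lines was made into libraries with an Illumina TruSeq v2 kit, which does not mark strand, and read as 100 bp pairs, per the labels. The signal values that the authors deposited are read counts per gene after division by a size factor for each library. A second deposited table holds log2 values, which the authors made from those counts by a transformation not given in the sources used here, and it served only as an alternative. The submitters' processing notes name build hg19, the aligner STAR, the counter HTSeq 0.6.1p1, DESeq2 1.12.4 and bcl2fastq 1.8.4. Since the strand setting of the counting is unstated, reads of overlapping genes cannot be told apart, and genes with near-identical copies are uncertain.

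Every deposited signal value was a whole multiple of 1 step per library (100% at a tolerance of 0.001), which recovered the reads and so the depth. Counting intervals are exact conditional 95% intervals on those reads. limma 3.58.1 in R 4.3.3 (lmFit, eBayes with trend, two-sided, Benjamini-Hochberg over 19263 genes) was run on log2(normalized count + 1) and blocked by cell line; this scale understates the change of low genes. The fit has 1 residual degree of freedom and 5.13 prior ones. Libraries are paired by their line. Within each line, deviations from the group means had a correlation of 0.919, the same for both because 2 lines leave 1 free deviation. Genes counted as 2-fold needed 100 or more normalized counts in 1 library of each line. edgeR 4.0.16 (quasi-likelihood) and DESeq2 1.42.0 on the recovered reads were alternatives, with other pseudocounts, filters, scalings and eBayes options, the authors' transformed values, no block, all 3 lines, and each line alone. The limma and edgeR fits were also run on simulated data, and DESeq2 was not. Of 67 genes simulated with a 2-fold change, limma called 40 and edgeR 41 at an adjusted p under 0.05. Of 19063 genes simulated without a change, limma called 21 and edgeR 19.

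The members and gene lists were chosen with earlier results of these data known. Genes named are NCAM1, the 14 highest and 14 lowest by the smaller of the 2 lines' log2 ratios (clone-type names, pseudogenes, antisense and readthrough genes passed over), up to 8 members per list by limma p, those against the list, and the line markers; some genes under this rule are not reported here. Promoters came from RefSeq tables of GRCh38.p14, matched by symbol.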

Additional observations from a re-analysis of the deposited data

Results flagged for a closer look

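The log2 ratio of SKM-1 differed from the mean of MOLM-14 and NOMO-1 for 15 genes among the 14 highest and 14 lowest by the smaller ratio of the 2 lines, by the limma fit on all 6 libraries with adjusted p under 0.05. Only those ranked genes are given here; other genes named in the report were also called. The ranked genes were chosen for their ratios in MOLM-14 and NOMO-1, which favours a difference from SKM-1. That test takes its spread from the difference between the MLL-AF9 lines, and SKM-1 has 1 library per condition. SKM-1 lay above the mean of the other lines on the log2 scale by 8.85 for SPP1, 7.32 for ACVR1C, 4.73 for IFI16 and 4.34 for FLT1. It lay above by 3.60 for RASGRP3, 2.68 for OCSTAMP, 2.09 for RGS1, 1.67 for ACSS2, 1.57 for DYNLT3 and 1.54 for HMGCS1. OCSTAMP had at most 5.51 normalized counts in SKM-1, and ACVR1C was listed at 0 in its control. SKM-1 lay below the other lines, with differences of -5.32 for MT1E, -5.16 for NCAM1, -2.79 for MT1X, -2.43 for EPAS1 and -1.95 for MAP2K6.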

How the results depend on the processing

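The count of genes called by limma, 0 in the main fit, was 2 with edgeR and 200 with DESeq2 on recovered reads. At an unadjusted p under 0.05, the 1728 genes of the fit with the cell line as a block became 105 without that block or pairing, 1114 with DESeq2 and 877 with all 3 lines. Genes at least 2-fold higher in both lines numbered 7, but 11 with total-count scaling, 3 on the authors' transformed values and 15 with a limit of 50 normalized counts. Genes at least 2-fold lower in both numbered 50, and 19 on the transformed values. With either line left out, no limma test could be had, since no residual degrees of freedom remain, and a single line then gave 63 to 148 genes higher and 128 to 501 lower. The 14 highest and 14 lowest genes kept the sign of their mean log2 ratio with another pseudocount, another scaling and the transformed values; other named genes were not recomputed singly. The median log2 ratio of all genes was 0.0259 in MOLM-14 and 0.0449 in NOMO-1 with total-count scaling, and 0.0102 and 0.0431 with quantile normalization. With total-count scaling 6590 genes were higher and 4902 lower in both lines, and the lower genes numbered 19 of 20 in cholesterol synthesis, 19 of 22 in glycolysis and 19 of 24 among immediate early genes.

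Each line has 1 library per condition, so neither line can be tested alone, and a called gene in either count tool rests on 2 differences. Counting error is wide for genes with few reads, as for TPSB2 in MOLM-14, 6.48-fold lower with an interval of 3.73 to 12.1.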

Other observations

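Of 15 BCL2 family genes, which set the threshold for cell death, 5 were higher and 5 lower in both lines, near the shares of all genes tested (28.8% and 30%). BCL2, which protects cells from apoptosis, went from 11887 to 7350 normalized counts in MOLM-14 and from 10367 to 4256 in NOMO-1, so that both knockdown libraries lay below both controls. BCL2A1, a relative that NF-kB induces, went from 203 to 136 and from 950 to 343. BBC3 (PUMA), which promotes death, was lower too, from 1015 to 658 and from 670 to 419. MCL1 and BMF were lower in both without an unadjusted limma p under 0.05, at mean log2 ratios of -0.31 and -0.36, and BID, BIK, BAK1, HRK and BAD were higher in both at 0.17 to 0.26, also without it. Of 20 p53 target genes, 5 were higher and 8 lower in both lines, and CDKN1A, TNFRSF10B, GADD45A and BBC3 had an unadjusted limma p under 0.05 as lower and ZMAT3 as higher. Among 18 genes that handle cytarabine and anthracyclines, 4 were higher and 4 lower in both; the nucleoside carrier SLC29A2 went from 2998 to 2032 and from 4546 to 2482, and the cytarabine kinase DCK had ratios of -0.01 and 0.05.

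Values of single genes of other lists follow. VWF, the blood clotting factor, went from 72.5 to 7.31 in MOLM-14 and from 35.9 to 2.74 in NOMO-1. MS4A1 (CD20), a B cell surface protein, was at 0 in the MOLM-14 control and 5.22 in its knockdown library, and went from 144 to 1988 in NOMO-1. TRAC, the T cell receptor alpha constant gene, went from 1677 to 902 and from 677 to 243. Of 11 stem and progenitor genes, 6 were lower in both lines, DNMT3B, GATA2 and LMO2 among them with an unadjusted limma p under 0.05, and the median mean log2 ratio was -0.33. KIT and MN1 were higher in both, also with an unadjusted limma p under 0.05, KIT from 137 to 168 and from 508 to 1325. In the MHC class II list, all 10 tested genes were higher in MOLM-14 and 3 in NOMO-1. Among 13 mitochondrially encoded genes, 6 were higher in both lines, and MT-ATP6, MT-ATP8 and MT-CYB had an unadjusted limma p under 0.05.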
